A study of Mus musculus with 49 samples.

Results

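Levels of 10 genes of the S100 and annexin families were followed in cultured mouse hepatocytes and in the aggregates and organoids grown from them. The genes were S100a1, S100a4, S100a6, S100a7a, S100a10, S100a11, Anxa1, Anxa2, Anxa3 and Anxa5, taken by name and Ensembl identifier from a table of 46078 identifiers, and all 10 were found. They were chosen by their CPM levels in these same libraries, so their levels and fold changes are given as a description, without p-values. Tests were kept for 18 other S100 and annexin genes and for 23 genes encoding known binding partners, receptors and proteases.

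The samples were 49 bulk RNA libraries of 16 groups, prepared by CEL-Seq2, which counts molecules of the 3' ends of transcripts by unique molecular identifiers (UMIs). The labels give wild-type C57BL/6J as the source of all cells. Hepatocytes of 10-week-old livers were freed by two-step collagenase perfusion, depleted of non-parenchymal cells by repeated centrifugation and sampled fresh (FH, 3 libraries) or as monolayers on type I collagen in medium with EGF at 6 times, 3 h and 1, 2 and 4 d as well as 1 and 2 wk after plating (3 libraries each). Further 1 wk monolayers received verteporfin at 0.3 µM, an inhibitor of the transcriptional coactivator Yap, or its solvent DMSO (2 libraries each). DediHeps (5 cultures) were serially passaged descendants of such hepatocytes, and dediHep aggregates (3) were dediHeps placed in 3D culture in ultra-low attachment plates. DediHep-SOs (3) were spherical organoids grown from dediHeps in Matrigel with Wnt3a, CHIR99021, EGF, Noggin and R-spondin1. DediHep-BOs (3) were budding organoids from dediHeps transduced with the intestinal transcription factor Cdx2. They were also grown in Matrigel, and Wnt3a and CHIR99021 were left out at later passages. Between dediHep-BOs and dediHeps or dediHep-SOs, Cdx2 and the culture conditions cannot be told apart. CLiPs (3) were hepatocyte-derived progenitors induced with Y-27632, A-83-01 and CHIR99021. FIPC-SOs (3) and ISC-BOs (4) were spherical organoids from fetal intestine (E13.5) and budding organoids from adult small intestine, neither of them from liver. The labels do not say whether libraries of a group came from separate animals, so p-values measure only the spread between these libraries.

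S100 proteins are small calcium sensors with a pair of EF-hand loops that work as dimers and pass a calcium signal to a target protein. Annexins bind acidic membrane phospholipids in the presence of calcium and act in membrane trafficking, repair and the link between membrane and actin. The families meet in fixed pairs: a dimer of S100a10 joins a pair of Anxa2 molecules in a tetramer at the plasma membrane that binds plasminogen activator and plasminogen, and S100a11 binds Anxa1. Many but not all members of both families are sparse in hepatocytes of healthy liver and more prominent in bile duct epithelium and in other epithelial and mesenchymal cells.

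In GRCm38, 6 of the 10 genes form part of the S100 cluster on chromosome 3: S100a1 (90511034 to 90514392, minus strand), S100a4 (90603771 to 90606045, plus), S100a6 (90612882 to 90624181, plus), S100a7a (90654017 to 90658669, plus), S100a11 (93520488 to 93526287, plus) and S100a10 (93555080 to 93564643, plus). Anxa5 lies on the same chromosome (36448923 to 36475894, minus strand), Anxa1 on chromosome 19 (20373428 to 20390944, minus), Anxa2 on chromosome 9 (69453620 to 69491795, plus) and Anxa3 on chromosome 5 (96793339 to 96845966, plus). Overlapping transcripts took few counts over all 49 libraries, the most being 32 for Gm42603 within Anxa3 and 26 for 1500015L24Rik opposite Anxa1. The processed pseudogene S100a11-ps had 16 counts.

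The 250 bases upstream of the RefSeq transcription start (GRCm38.p6) are shown for S100a11 and Anxa2 and for the neighbours S100a4 and S100a6. S100a11 was above FH from 3 h, Anxa2 and S100a6 came up between 3 h and 1 d, and S100a4 mostly a day later. Capitals mark matches to an AP-1 site (TGANTCA, bound by Fos and Jun proteins), a TEAD site (GGAATG, bound by the partners of Yap) or a TATA box (TATAAA), searched on both strands. The windows are chr3:93520246-93520495, chr9:69453433-69453682, chr3:90603520-90603769 and chr3:90612644-90612893, all on the plus strand.
S100a11: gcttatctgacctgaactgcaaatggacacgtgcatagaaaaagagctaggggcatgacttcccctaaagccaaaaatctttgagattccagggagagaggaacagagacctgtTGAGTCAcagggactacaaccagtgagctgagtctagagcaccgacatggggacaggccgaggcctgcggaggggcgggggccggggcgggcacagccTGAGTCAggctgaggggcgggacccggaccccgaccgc
Anxa2: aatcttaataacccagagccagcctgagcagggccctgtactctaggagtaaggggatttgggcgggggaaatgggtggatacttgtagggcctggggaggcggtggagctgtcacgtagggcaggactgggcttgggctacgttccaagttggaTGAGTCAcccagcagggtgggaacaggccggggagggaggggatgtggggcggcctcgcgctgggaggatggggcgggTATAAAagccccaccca
S100a4: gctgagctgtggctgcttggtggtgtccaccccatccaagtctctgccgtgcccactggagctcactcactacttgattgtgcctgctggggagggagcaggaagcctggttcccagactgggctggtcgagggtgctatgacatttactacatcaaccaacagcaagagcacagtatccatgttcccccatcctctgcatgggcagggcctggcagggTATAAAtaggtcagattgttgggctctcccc
S100a6: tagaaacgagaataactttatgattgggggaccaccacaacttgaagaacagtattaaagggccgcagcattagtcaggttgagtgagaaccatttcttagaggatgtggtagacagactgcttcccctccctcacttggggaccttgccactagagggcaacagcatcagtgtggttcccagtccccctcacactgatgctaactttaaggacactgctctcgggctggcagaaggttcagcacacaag
The window of S100a11 held AP-1 matches at -136 to -130 and at -38 to -32 from the start, and that of Anxa2 a match at -95 to -89 and a TATA box at -17 to -12. The window of S100a4 held a TATA box at -31 to -26, and that of S100a6 none of these letters. GENCODE M21, whose gene positions are given above, starts S100a6 and S100a11 within the last bases of their windows and Anxa2 at 69453620, upstream of the TATA box marked there. Promoters were listed for 8 of the 10 genes, S100a10 and Anxa3 not among them. Counting also the first 50 transcribed bases, AP-1 matches were found in 2 of the 8 against 7.81% of 32851 promoters, TEAD matches in 2 (S100a7a and Anxa1) against 14.7%, TATA boxes in 3 (S100a4, Anxa1 and Anxa2) against 13.6%, GC boxes (GGGCGG) in 2 (S100a11 and Anxa2) against 35.7%, and a CArG box in 1 (Anxa5) against 1.63%. These matches are a description of the letters and say nothing about binding.

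Library totals ranged from 861047 to 3872936 counts (median 1976760). Levels (CPM) are counts per 1000000 library counts, the totals being scaled by TMM factors over all 49 libraries. A UMI of 6 bases allows a fixed number of different molecules per gene and library, and S100a6 came close to it: its count was above 50% of that limit in 34 libraries, above 75% in 28 and above 90% in 14, up to 99.41%. Anxa2 was above 50% in 18 libraries (up to 89.65%), S100a11 in 11 (83.35%), Anxa3 in 9 (66.85%), Anxa5 in 3 (74.34%) and S100a10 in 2 (52.37%). Counts of S100a6 therefore flattened near the limit, and its CPM in cultured cells depended on library size. The order of S100a6 levels among the cultured groups cannot be read from these counts, whereas its distance from FH is understated.

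**Figure D1:**
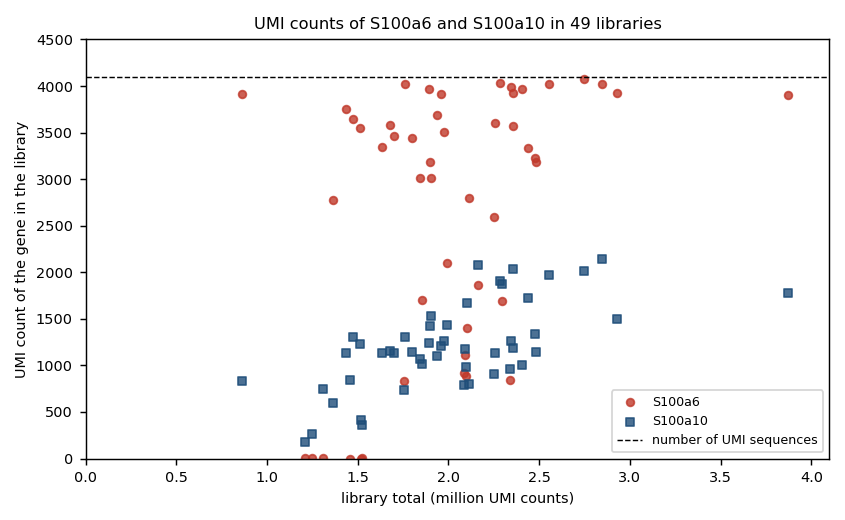
UMI count of S100a6 (circles) and S100a10 (squares) against the library total, 1 point per library and gene, 49 libraries; the dashed line is the number of UMI sequences of 6 bases. S100a6 was above 90% of the line in 14 libraries, up to 99.41%, and above 50% in 34, whereas S100a10 reached 52.37%.

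Freshly isolated hepatocytes had almost no transcripts of S100a4, S100a6, S100a7a, S100a11, Anxa1, Anxa2 and Anxa3, and carried S100a1, S100a10 and Anxa5. Within 1 d of plating, S100a6, S100a11, Anxa2, Anxa3 and Anxa5 stood far above FH in all 3 libraries. S100a4 followed at lower levels, and S100a7a and Anxa1 were found in every library only from 1 wk. S100a1 went the other way. In bulk RNA, fewer cells of a type and less RNA per cell cannot be told apart.

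Anxa2 and its partner S100a10 started from different points. Anxa2 was at 5.44, 10.4 and 6.98 CPM in the 3 FH libraries, 16.8, 10.2 and 11.8 CPM at 3 h, and 892, 1112 and 1271 CPM at 1 d. The 3 h libraries overlapped FH, and the 1 d libraries lay far above both. The log2 fold change against FH was 7.00 (SE 0.47) at 1 d and 7.90 at 2 wk, when the libraries were at 1257, 1866 and 2726 CPM. S100a10, which unlike other S100 proteins is held in its active shape without calcium, was already at 287, 228 and 359 CPM in FH. It reached 895, 418 and 902 CPM at 3 h, above every FH library, and 808, 850 and 1050 CPM at 1 d, its highest mean of all 16 groups. Its log2 fold changes against FH were 1.35 (SE 0.32) at 3 h, 1.46 (SE 0.32) at 1 d and 1.38 at 2 wk. Between 3 h and 1 d, S100a10 differed by 0.11 (SE 0.31) and Anxa2 by 6.23 (SE 0.44) on the log2 scale. The small step of S100a10 depended on the scaling of the totals. Without TMM factors its means were 197.3 CPM in FH, 473.5 CPM at 3 h, 858.7 CPM at 1 d and 827.2 CPM at 2 wk.

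S100a11, a partner of Anxa1, was the first of the near-silent genes to come up. It was at 3.26, 5.22 and 4.99 CPM in FH, 49.1, 11.2 and 42.8 CPM at 3 h and 419, 673 and 800 CPM at 1 d. No library of a later group overlapped an earlier one across these 3 groups. The log2 fold change was 2.93 (SE 0.55) at 3 h and 6.95 (SE 0.56) at 1 d against FH. At 1 d its mean was 47.94% of its highest monolayer mean, reached at 2 wk (972, 1268 and 1709 CPM).

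S100a6, or calcyclin, a marker of proliferating and stromal cells that binds the ubiquitin ligase adaptor Cacybp, had 5 counts in the 3 FH libraries together and 1 count at 3 h. At 1 d it was at 728, 715 and 941 CPM, and the 1 d total of 4960 counts was 3242 times the 3 h level (95% counting interval 581.5 to 128100). Against FH the log2 fold change was 8.52 (SE 0.56) at 1 d and 10.42 (SE 0.59) at 2 wk. The 2 wk libraries were at 1509, 2437 and 4475 CPM, in inverse order of their totals, and the highest value came from the smallest library of the series.

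Anxa3, an annexin found in hepatic progenitor and tumour cells, was at 1.09, 6.52 and 7.98 CPM in FH and 1.20, 1.02 and 0 CPM at 3 h. With 14 counts in FH and 2 at 3 h, the FH level was 7.53 times the 3 h level (95% counting interval 1.73 to 68.3). It was at 532, 543 and 865 CPM at 1 d and 1083, 962 and 911 CPM at 2 d, and its mean at 2 d was already 98.33% of its monolayer maximum. The log2 fold change against FH was 6.78 (SE 0.46) at 1 d. Anxa5, known as the probe for phosphatidylserine on dying cells, was measurable throughout, at 56.6, 65.2 and 51.9 CPM in FH, 68.2, 89.5 and 109 CPM at 3 h and 498, 641 and 571 CPM at 1 d. The 3 h libraries all lay above FH by a small margin (log2 fold change 0.64, SE 0.32), and the larger step came by 1 d (3.13 against FH, SE 0.33).

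S100a4, or metastasin, which binds non-muscle myosin heavy chain Myh9 and is best known from fibroblasts and invasive cells, had 1 count in the FH libraries and none at 3 h. At 1 d it was at 9.03, 1.02 and 5.56 CPM, and at 2 d at 28.0, 14.5 and 23.1 CPM. The 2 d libraries all lay above the 1 d libraries (log2 fold change 2.04). With 34 counts at 1 d, its level was 20.7 times that of FH (95% counting interval 3.47 to 840). Its mean at 1 d was 19.17% of its highest monolayer mean, reached at 4 d, against 56% for Anxa2 and 64.55% for Anxa3 of theirs.

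S100a7a, a skin S100 protein of inflamed epithelium, and Anxa1, a mediator of the resolution of inflammation that signals through formyl peptide receptors, had no count in FH. S100a7a had no count up to 1 d and 1 count each at 2 d and 4 d, and Anxa1 had 1 count at 3 h, 3 at 1 d, 1 at 2 d and 5 at 4 d. S100a7a was at 2.61, 0.957 and 0.990 CPM at 1 wk and 10.5, 5.46 and 3.43 CPM at 2 wk, where it was at least 10.3-fold higher than in FH, taking 3 counts over the 3 FH libraries as the floor. Anxa1 was at 2.24, 6.70 and 0.66 CPM at 1 wk and 7.89, 4.25 and 4.58 CPM at 2 wk, at least 8.21-fold higher than in FH. For both genes every library of 1 wk and 2 wk lay above all FH libraries.

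S100a1, the S100 protein of heart and skeletal muscle that acts on calcium channels and pumps, was the only member with a lower mean than in FH from 1 d on. It was at 297, 793 and 1289 CPM in FH, 254, 416 and 465 CPM at 1 d and 214, 188 and 184 CPM at 2 d. The 3 FH libraries differed widely, and the 2 d libraries lay below all of them. So did those of 4 d and 2 wk, whereas at 1 wk (386, 29.7 and 114 CPM) the groups overlapped. The log2 fold change against FH was -1.23 (SE 0.55) at 1 d and -1.95 at 2 wk, or -2.34 without FH replicate 1, which is past a log2 fold change of 2. Without TMM factors the fall was smaller, with means of 522.8 CPM in FH, 357.5 CPM at 1 d and 222.7 CPM at 2 wk.

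**Figure D2:**
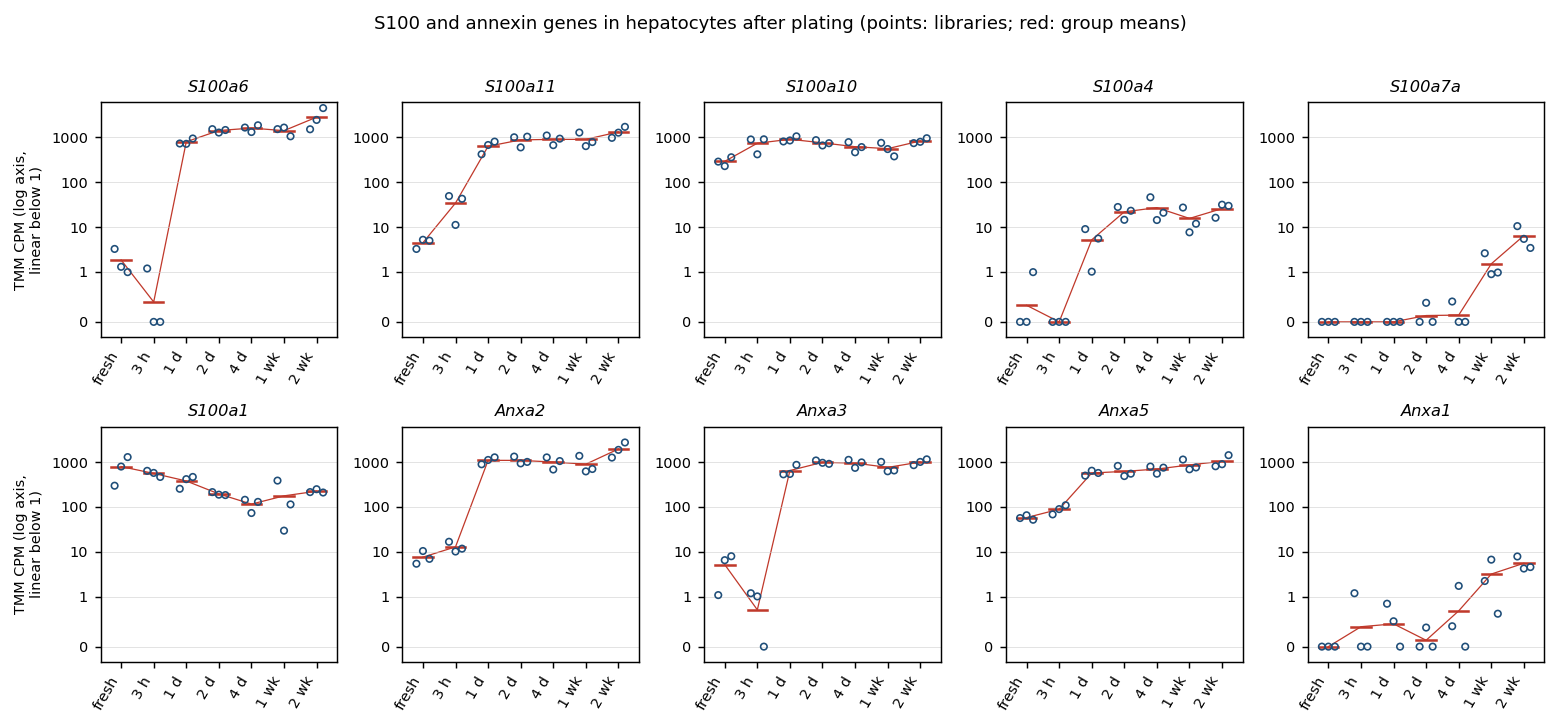
TMM CPM (log axis, linear below 1) of the 10 genes in fresh hepatocytes and at 6 times of monolayer culture, 1 panel per gene; points are libraries (3 per group) and red bars group means. S100a6, S100a11, Anxa2, Anxa3 and Anxa5 all step up by 1 d, S100a10 is high from the start, S100a7a and Anxa1 lie above fresh hepatocytes in every library only from 1 wk, and S100a1 declines.

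A gene is said to pass both thresholds where the false discovery rate (FDR) over all genes tested was under 0.1 and the absolute log2 fold change over 2, in edgeR's quasi-likelihood test. Since levels chose these genes, the counts are given beside the share of all genes and nothing is read from them. Of 8 members with enough counts, 1 was higher and 1 lower at 3 h, when 6.91% of all genes passed. At 1 d 6 were higher and 0 lower, against 17.4% of all genes. At 2 d, 4 d and 1 wk 6 were higher and 1 lower, against 21.3%, 23.8% and 25.9% of all genes. At 2 wk 6 were higher and 0 lower (29.5% of all genes). Between 3 h and 1 d 6 were higher and 0 lower (24.2% of all genes). The median log2 fold change of the 8 was 0.07 at 3 h and 5.12 at 1 d, where the median over all genes tested was -0.07 and -0.03.

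Non-parenchymal cells differed between these libraries. The summed level of 9 macrophage markers was 107.7 to 336.4 CPM in FH, 3.59 to 7.49 CPM at 3 h, 1.52 to 79.6 CPM at 1 d and 10.3 to 224.5 CPM at 2 wk. That of 9 stellate cell or fibroblast markers, a class that includes typical S100a4 and S100a6 expressing cells, was 73.8 to 184.9 CPM in FH, 0.505 to 31.0 CPM at 1 d and 63.0 to 352.5 CPM at 2 wk. In FH, where both lists had all 9 genes detected, S100a4 and S100a6 had 1 and 5 counts. In the 1 d library with the lowest sums of both lists (replicate 3), S100a6 was at 941 CPM and S100a4 at 5.56 CPM, within or above the range of the other 1 d libraries. This is 1 library, and the part of non-parenchymal cells in the levels of these genes was not tested. The sum of 8 hepatocyte markers was 16340 to 19370 CPM in FH, 5984 to 7685 CPM at 1 d and 982.3 to 1409 CPM at 2 wk, the last with Tat and Cyp2e1 at 0.

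In dediHeps, S100a6, S100a11, Anxa2, Anxa3 and Anxa5 were far above FH. The lowest, median and highest of the 5 cultures were 1241, 1830 and 2019 CPM for S100a6, 559, 816 and 913 CPM for S100a11, 458, 837 and 884 CPM for Anxa2, 600, 836 and 1082 CPM for Anxa3 and 246, 393 and 547 CPM for Anxa5. All 5 cultures lay far above every FH library for each of these genes. The log2 fold changes against FH were 9.59 (SE 0.56) for S100a6, 7.22 (SE 0.43) for S100a11, 7.16 (SE 0.58) for Anxa3, 6.44 (SE 0.45) for Anxa2 and 2.54 (SE 0.37) for Anxa5. With counts corrected for repeated use of the same UMI, the value for S100a6 was 11.31.

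The late genes were most variable between dediHep cultures. S100a7a was at 19.2, 10.7, 1.23, 15.1 and 39.6 CPM in cultures 1 to 5, and its mean of 17.1 CPM (SD 14.2) was the highest of the 16 groups. Anxa1 was at 92.5, 15.3, 63.9, 12.2 and 7.72 CPM. With no count in FH, S100a7a was at least 22.1-fold and Anxa1 at least 55.9-fold higher in dediHeps. S100a4 was at 12.6, 19.8, 18.5, 5.70 and 6.27 CPM, 55.3 times the FH level of 1 count (95% counting interval 9.77 to 2198).

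S100a10 was at 621, 631, 662, 410 and 584 CPM in dediHeps, all above the FH range, with a log2 fold change of 0.79 (SE 0.31). S100a1 was at 103, 188, 192, 254 and 341 CPM, and its log2 fold change of -2.09 (SE 0.46) stood close to the threshold of 2. It no longer passed without FH replicate 3, without dediHep culture 1 or without culture 2. Without TMM factors the S100a1 means lay closer together, at 522.8 CPM in FH and 229.6 CPM in dediHeps. In all, 8 members were higher and 1 lower of 10 tested, where 25.7% of all genes passed. The median over the members was 6.80, or 5.24 with the 2 genes absent from FH set at their bounds, against 0.08 over all genes. In dediHeps 6 of 9 macrophage markers and 5 of 9 stellate cell or fibroblast markers had no count, and the sums were 0.965 to 9.87 CPM and 0.509 to 2.74 CPM.

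Monolayers at 2 wk had lower Anxa1 than dediHeps (log2 fold change -2.77, SE 0.89), and the 2 wk range of 4.25 to 7.89 CPM overlapped only the lowest dediHep culture. Anxa5 (1.45), Anxa2 (1.39) and S100a4 (1.03) were higher at 2 wk. By both thresholds 0 of 10 members were higher and 1 lower, against 5.93% of all genes.

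In aggregates S100a10 (411 to 517 CPM) and Anxa2 (353 to 731 CPM) overlapped the dediHep ranges only through the lowest dediHep culture (410 and 458 CPM). Both lay below all the other dediHep cultures. Anxa3 and S100a7a were lower and S100a1 was higher, and S100a4 and Anxa1 had lower means with overlapping ranges. S100a7a had 1 count in the 3 aggregate libraries, and its dediHep level was 97.2 times higher (95% counting interval 17.2 to 3861). Anxa1 was at 3.87, 10.4 and 1.54 CPM in aggregates, overlapping the lowest dediHep culture (log2 fold change -2.80, SE 0.97). Its value passed both thresholds, but no longer without dediHep culture 1 or 3 or without aggregate 1 or 3. Anxa3 was at 203, 336 and 250 CPM, below all 5 dediHep cultures (-1.68, SE 0.28). Corrected for UMI repeats its change was -2.01, just past the threshold.

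S100a1 was at 674, 652 and 574 CPM in aggregates, above all dediHep cultures (1.61, SE 0.33) and within the FH range (-0.45 against FH). Its direction against FH depended on the scaling, as means without TMM factors were 602.2 CPM in aggregates and 522.8 CPM in FH. S100a4 was at 0.773, 6.95 and 2.05 CPM (-1.83, SE 0.70), and passed without dediHep culture 4 (-2.02), culture 5 (-2.002) or aggregate 2 (-2.99). S100a11 was at 244, 637 and 399 CPM (-0.84, SE 0.31) and Anxa5 at 135, 366 and 275 CPM (-0.56). Anxa2 (-0.42) and S100a10 (-0.29) differed less. S100a6, at 2147, 1704 and 1434 CPM, had a log2 fold change of 0.08, or -0.48 when corrected for UMI repeats, so its direction was not readable. Of 10 members 0 were higher and 2 lower, where 9.51% of all genes passed. Hepatocyte markers summed to 6199 to 9904 CPM in aggregates and 823.3 to 4069 CPM in dediHeps, and proliferation markers to 8.51 to 101 CPM and 379 to 2082 CPM. Their part in these values was not tested.

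Compared with FH rather than dediHeps, aggregates still had S100a6 at a log2 fold change of 9.67, S100a11 at 6.39, Anxa2 at 6.05 and Anxa3 at 5.50, and Anxa5 at 1.99 (SE 0.42). Of 7 members tested 4 were higher and 0 lower, where 16.6% of all genes passed.

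In dediHep-SOs, S100a10, S100a11, S100a4 and Anxa2 overlapped their dediHep ranges, with log2 fold changes of 0.02, 0.00, -0.02 and 0.34. S100a6 was at 77.6% to 95.7% of the UMI limit in dediHep-SOs and 81.6% to 98.2% in dediHeps, so its value of -0.20, or -0.60 corrected for UMI repeats, could not be read. Anxa5 was at 134, 101 and 85.5 CPM, below all dediHep cultures (-1.84, SE 0.33), and passed the threshold without the first dediHep-SO library (-2.05). Anxa1 went in the other direction by its mean, at 51.7, 106 and 306 CPM, its highest mean of the 16 groups, though the ranges overlapped (2.00, SE 0.81, and 2.66 without dediHep culture 1). Between libraries of the same culture it was lower in dediHep-SOs for dediHep culture 1 (51.7 against 92.5 CPM) and higher for dediHep cultures 2 and 3. S100a7a had 4 counts in all, at 0.452 to 0.630 CPM, below every dediHep culture (-4.83, SE 1.06). Of 10 members 0 were higher and 1 lower, where 8.76% of all genes passed. Neutrophil markers summed to 62.5 to 109 CPM in dediHep-SOs and 0 to 19.8 CPM in dediHeps. In dediHep-SOs the sum came from Ly6g and Ltf, with Csf3r at no more than 1 count per library and the other 3 at 0. The part of such a source in the Anxa1 level was not tested.

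The Cdx2-transduced dediHep-BOs had the lowest means among the hepatocyte-derived groups sampled from 1 d on for S100a11, Anxa2, Anxa3, Anxa5 and S100a1. Anxa5 was at 27.5, 21.6 and 11.6 CPM, lower than in FH, with a log2 fold change of -4.25 (SE 0.41) against dediHeps. Anxa3 was at 51.6, 60.9 and 28.5 CPM (-4.18, SE 0.36) and S100a11 at 148, 184 and 157 CPM (-2.25, SE 0.23). In all 3 genes every dediHep-BO library lay below every dediHep culture. S100a7a had 1 count, against a dediHep level 99.0 times higher (95% counting interval 17.5 to 3932).

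S100a10 was at 511, 618 and 509 CPM in dediHep-BOs (-0.08) and Anxa2 at 470, 446 and 478 CPM (-0.71). S100a10 lay within its dediHep range, whereas Anxa2 reached only dediHep culture 1 (458 CPM) and lay below the other 4 cultures (824 to 884 CPM). S100a6 was at 852.5, 907.6 and 480.6 CPM (-1.18, SE 0.27), with a value of -2.47 after correction for UMI repeats that passed the threshold. S100a1 was at 75.6, 52.3 and 37.5 CPM (-1.94, SE 0.40), and passed when dediHep culture 1, culture 2 or the first dediHep-BO library was left out. Anxa1 was at 15.02, 17.7 and 4.31 CPM (-1.64, SE 0.87). Fitted with the replicate number as a block, Anxa1 was at -2.11 and passed, and the members counted as lower went from 4 to 5. Without the block, 0 of 10 were higher and 4 lower, where 14.2% of all genes passed. Stellate cell or fibroblast markers summed to 298, 294 and 4.74 CPM in dediHep-BO libraries 1 to 3 and up to 2.74 CPM in dediHeps. Library 3, with the low sum, also had the lowest Anxa1, Anxa3, Anxa5, S100a6 and S100a4 (3.02 CPM, against 10.5 and 11.2 CPM in the others), and the part of such cells in these values was not tested.

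**Figure D3:**
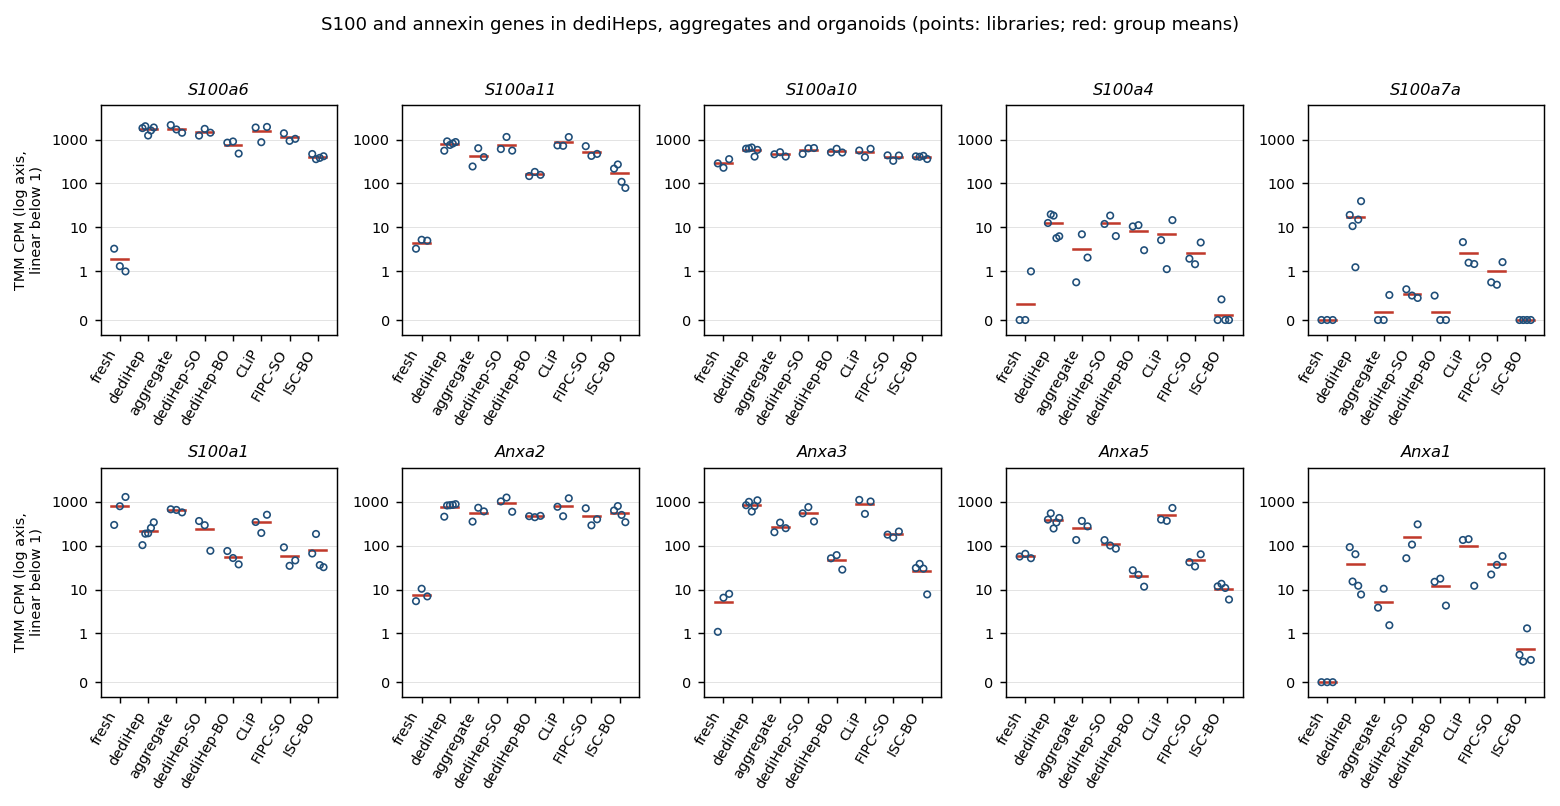
TMM CPM (log axis, linear below 1) of the 10 genes in fresh hepatocytes, dediHeps, aggregates, organoids and CLiPs, 1 panel per gene; points are libraries (3 to 5 per group) and red bars group means. Anxa3 and Anxa5 step down from dediHeps to dediHep-BOs and ISC-BOs, the means of S100a10 lie between 292 and 582 CPM in these groups, and the mean of S100a7a is highest in dediHeps.

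**Figure D4:**
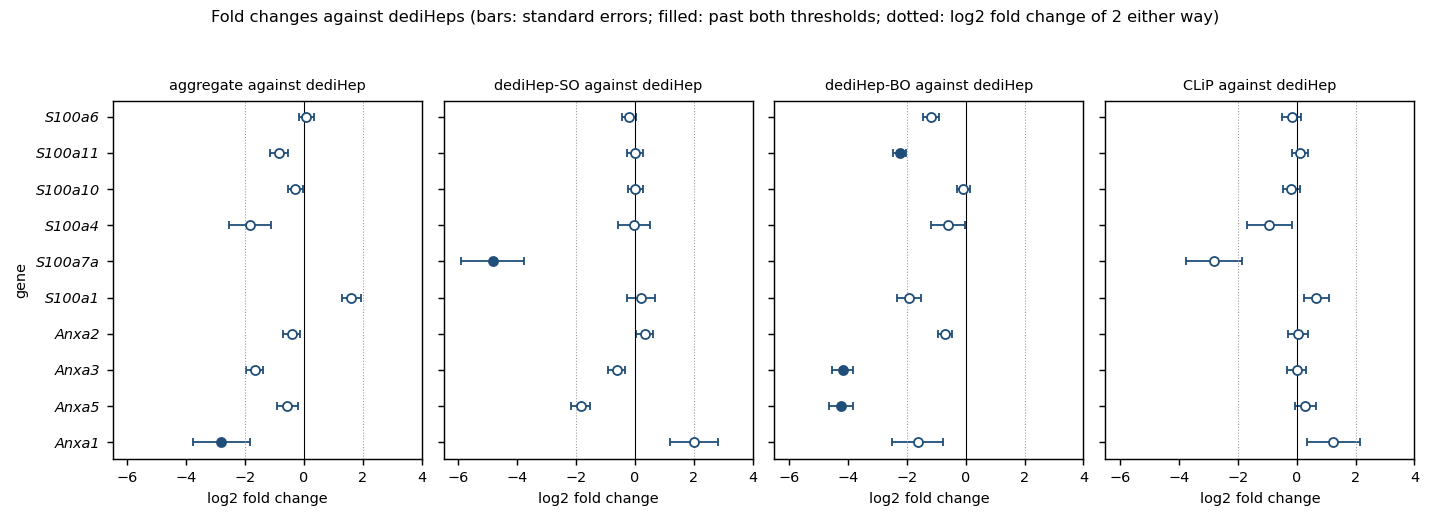
Log2 fold change against dediHeps in aggregates, dediHep-SOs, dediHep-BOs and CLiPs for the members; bars are standard errors, filled points pass both thresholds and dotted lines mark a log2 fold change of 2. S100a7a is not drawn for aggregates and dediHep-BOs, where it had 1 count; the farthest points are Anxa5 (-4.25) and Anxa3 (-4.18) in dediHep-BOs and S100a7a (-4.83) in dediHep-SOs.

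In CLiPs, S100a10, S100a11, Anxa2, Anxa3 and Anxa5 had log2 fold changes within 0.3 of 0 in either direction, with overlapping ranges. S100a6 was at 89.97% to 97.4% of the UMI limit in CLiPs and could not be compared. S100a7a was at 4.61, 1.57 and 1.46 CPM (-2.80, SE 0.95), and passed without dediHep culture 3 (-3.11). Anxa1 was at 135, 141 and 12.2 CPM (1.25, SE 0.90). No member passed both thresholds by edgeR's quasi-likelihood test, where 3.04% of all genes passed, and DESeq2 called 1. An unadjusted p under 0.05 by the edgeR test was found in 1 of 10 members and in 1945 of 11567 genes. A p that misses the threshold does not show that CLiPs and dediHeps had like levels. Macrophage markers, nearly all Csf1r with 1 count of C1qb and the other 7 at 0, summed to 67.8 to 147.8 CPM there, and hepatocyte markers to 1385, 1282 and 5722 CPM in CLiP libraries 1 to 3, the last with the low Anxa1. The part of either in these values was not tested.

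Verteporfin was compared with DMSO in monolayers at 1 wk, with 2 libraries each. S100a4 was at 93.1 and 105 CPM with verteporfin and 38.5 and 36.7 CPM with DMSO (log2 fold change 1.39, SE 0.28), and its verteporfin mean was the highest of the 16 groups. Anxa1 was at 13.48 and 12.44 against 6.31 and 4.45 CPM (1.26, SE 0.46), and S100a7a at 7.06 and 6.84 against 3.16 and 0 CPM (2.15, SE 0.87). The groups did not overlap in these 3 genes, nor in S100a1 (112.3 to 160.5 against 74.5 to 87.4 CPM, 0.74, SE 0.28), S100a10, Anxa2 and Anxa3. With 2 libraries each, groups can separate without a difference. The ranges of S100a11 overlapped. S100a6 (2337 and 2206 against 2365 and 1992 CPM) and Anxa5 (755 and 812 against 910 and 790 CPM) overlapped, with S100a6 at 86.6% to 91.5% of the UMI limit in these 4 libraries. No member passed both thresholds by edgeR's quasi-likelihood test, where 0.269% of all genes passed, and DESeq2 called 0. An unadjusted p under 0.05 by the edgeR test was found in 4 of 10 members and in 961 of 10400 genes.

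Against the organoids of intestinal origin, dediHep-SOs had higher levels of S100a4 and S100a1 than FIPC-SOs, with log2 fold changes of 2.16 (SE 0.57) and 2.07 (SE 0.57). S100a4 was at 11.97, 18.6 and 6.34 CPM in dediHep-SOs and 1.93, 1.45 and 4.52 CPM in FIPC-SOs, without overlap, whereas the ranges of S100a1 overlapped. FIPC-SO library 3, with the highest S100a4 of the 3, had a sum of stellate cell or fibroblast markers of 487.5 CPM, against 12.8 and 5.79 CPM in the others, and the part of such cells was not tested. Anxa3 was at 545, 757 and 357 CPM against 179, 153 and 210 CPM (1.60), and Anxa5 at 134, 101 and 85.5 CPM against 42.1, 33.6 and 63.6 CPM (1.18). S100a10 (0.53) and S100a11 (0.51) differed less. All 9 members tested had positive values, and 2 were called higher and 0 lower, where 8.91% of all genes passed.

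Between dediHep-BOs and ISC-BOs, the 7 members tested had log2 fold changes of -0.49 to 0.99. S100a6 was at 852.5, 907.6 and 480.6 CPM in dediHep-BOs against 359 to 470 CPM in ISC-BOs (0.93, SE 0.23), and Anxa5 at 27.5, 21.6 and 11.6 CPM against 5.93 to 13.53 CPM (0.99). S100a11 was at 148 to 184 CPM against 79.3 to 272 CPM (0.00), and Anxa2 at 446 to 478 CPM against 343 to 800 CPM (-0.24). S100a4 had 54 counts in dediHep-BOs and 1 in ISC-BOs, a ratio of 75.3 (95% counting interval 12.95 to 3028). Stellate cell or fibroblast markers, given above for the dediHep-BO libraries, summed to 3.81 to 8.21 CPM in ISC-BOs, and their part in this ratio was not tested. No member of 7 tested passed both thresholds by edgeR's quasi-likelihood test, where 3.05% of all genes passed. An unadjusted p under 0.05 by that test was found in 3 of the 7 and in 2558 of 11303 genes. S100a7a had no count in the 4 ISC-BO libraries, and Anxa1 was at 0.423 to 1.31 CPM there.

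Over the 16 groups, most neighbours in the order of mean levels overlapped in their library values. Gaps, with all groups above by mean clear of all groups below, were few. Anxa3 had no overlap below dediHep-SOs (553 CPM, SD 200.5) and below FIPC-SOs (180 CPM, SD 28.5), and its 4 lowest groups were dediHep-BOs, ISC-BOs, FH and 3 h. Anxa5 had gaps below aggregates (259 CPM, SD 117), below 3 h (88.9 CPM, SD 20.4) and below FIPC-SOs (46.5 CPM, SD 15.5). S100a11 had gaps below dediHep-BOs (163 CPM, SD 18.6) and below 3 h (34.3 CPM, SD 20.3). Anxa2 had a gap between dediHep-BOs (465 CPM, SD 16.9) and 3 h (12.9 CPM, SD 3.43). S100a6 had gaps on either side of ISC-BOs (408 CPM, SD 48.2), which stood between dediHep-BOs and FH. S100a4 had a gap below the verteporfin monolayers (99.1 CPM, SD 8.51). Anxa1 and S100a7a had none. S100a10 and S100a1 also had no gap in their order, with means of 292 to 903 CPM and 55.1 to 793 CPM.

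Of the other S100 and annexin genes, 18 of 19 searched were in the table and 6 to 10 had enough counts per comparison. These were tested, and FDR values are from edgeR's quasi-likelihood test over all genes. S100a16, an S100 protein of broad tissue distribution, rose at 1 d, from 42.5 CPM (SD 11.7) in FH to 265, 281 and 362 CPM (log2 fold change 2.66, SE 0.48, FDR 0.0001592). It was at 54.1 CPM (SD 21.3) by 2 wk. S100a3, known from hair cuticle, had no count in FH and 61 at 1 d, a rise of at least 12.4-fold (FDR 0.0001623), and was still called at 2 wk with 7 counts (at least 1.80-fold, FDR 0.04523). At 1 d 2 of 8 tested were called, where 17.4% of all genes passed.

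Anxa4, an annexin of bile duct and other secretory epithelia, rose more slowly. It was at 124 CPM (SD 43.1) in FH, 161 CPM (SD 11.6) at 1 d and 584 CPM (SD 58.4) at 2 wk, where it was called (2.10, SE 0.28, FDR 2.321e-06), and at 1017 CPM (SD 199) in dediHeps (2.82, SE 0.39, FDR 0.0001839). Anxa8 had no count in FH, 14.3, 6.07 and 8.01 CPM at 2 wk (at least 14.1-fold, FDR 0.001063) and 31.2 to 168 CPM in dediHeps (at least 106-fold, FDR 0.0008478). At 2 wk it was lower than in dediHeps (-2.73, SE 0.67, FDR 0.02936), as was S100g (FDR 0.09412).

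S100g, or calbindin-D9k, the vitamin D-dependent calcium carrier of intestine, had no count in FH, 0 to 10.8 CPM in dediHeps (at least 9.03-fold, FDR 0.0501) and 311, 107 and 188 CPM in aggregates. It rose from dediHeps to aggregates (5.15, SE 0.72, FDR 0.001729) and to dediHep-BOs (35.5, 46.3 and 54.3 CPM, 2.98, SE 0.68, FDR 0.009077), where it stood beside 40.6 to 87.1 CPM in ISC-BOs. The aggregate libraries all lay above the ISC-BO libraries. The 9 intestinal epithelium markers, S100g not among them, summed to 270 to 763 CPM in aggregates, with Cdx1, Lyz1 and Chga at 0, and to 3246 to 4271 CPM in ISC-BOs.

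S100a14, an S100 protein of surface epithelia, had no count in dediHeps and appeared in both organoid types, at 95.8, 122 and 164 CPM in dediHep-SOs (at least 478-fold, FDR 0.000112) and 36.5, 49.7 and 27.2 CPM in dediHep-BOs (at least 151-fold, FDR 0.0001912). In dediHep-BOs, Anxa6 fell to 1.00, 3.03 and 2.59 CPM from 38.1 to 346 CPM in dediHeps (-6.27, SE 0.85, FDR 0.0004805), and Anxa8 fell as well (-3.85, SE 0.75, FDR 0.003834). Anxa10, an annexin of gastric epithelium, had 1 count in dediHeps and 254 in dediHep-BOs (54.6, 57.5 and 5.17 CPM), a ratio of 459 (95% counting interval 81.7 to 18210, FDR 0.0002659).

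In dediHep-SOs against FIPC-SOs, Anxa8 (2.64, FDR 0.006539), Anxa6 (2.42, FDR 0.01911) and S100a16 (2.18, FDR 0.02797) were higher and Anxa10 was lower (-5.02, SE 0.61, FDR 0.0006049). These were 4 of 10 tested, where 8.91% of all genes passed. In aggregates against FH, S100g (at least 231-fold), Anxa8 (at least 26.7-fold) and Anxa4 (2.41, SE 0.41) were higher. There 3 of 8 tested were called, where 16.6% of all genes passed. No other family gene was called by edgeR's quasi-likelihood test at 3 h against FH (2 of 8 with an unadjusted p under 0.05), in CLiPs (1 of 8, and 2 called by DESeq2), with verteporfin (2 of 6, and 0 called by DESeq2) or in dediHep-BOs against ISC-BOs (2 of 8). Over all genes, 3494 of 12443 had an unadjusted p under 0.05 by that edgeR test at 3 h, and the counts for the other comparisons are given above.

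**Figure D5:**
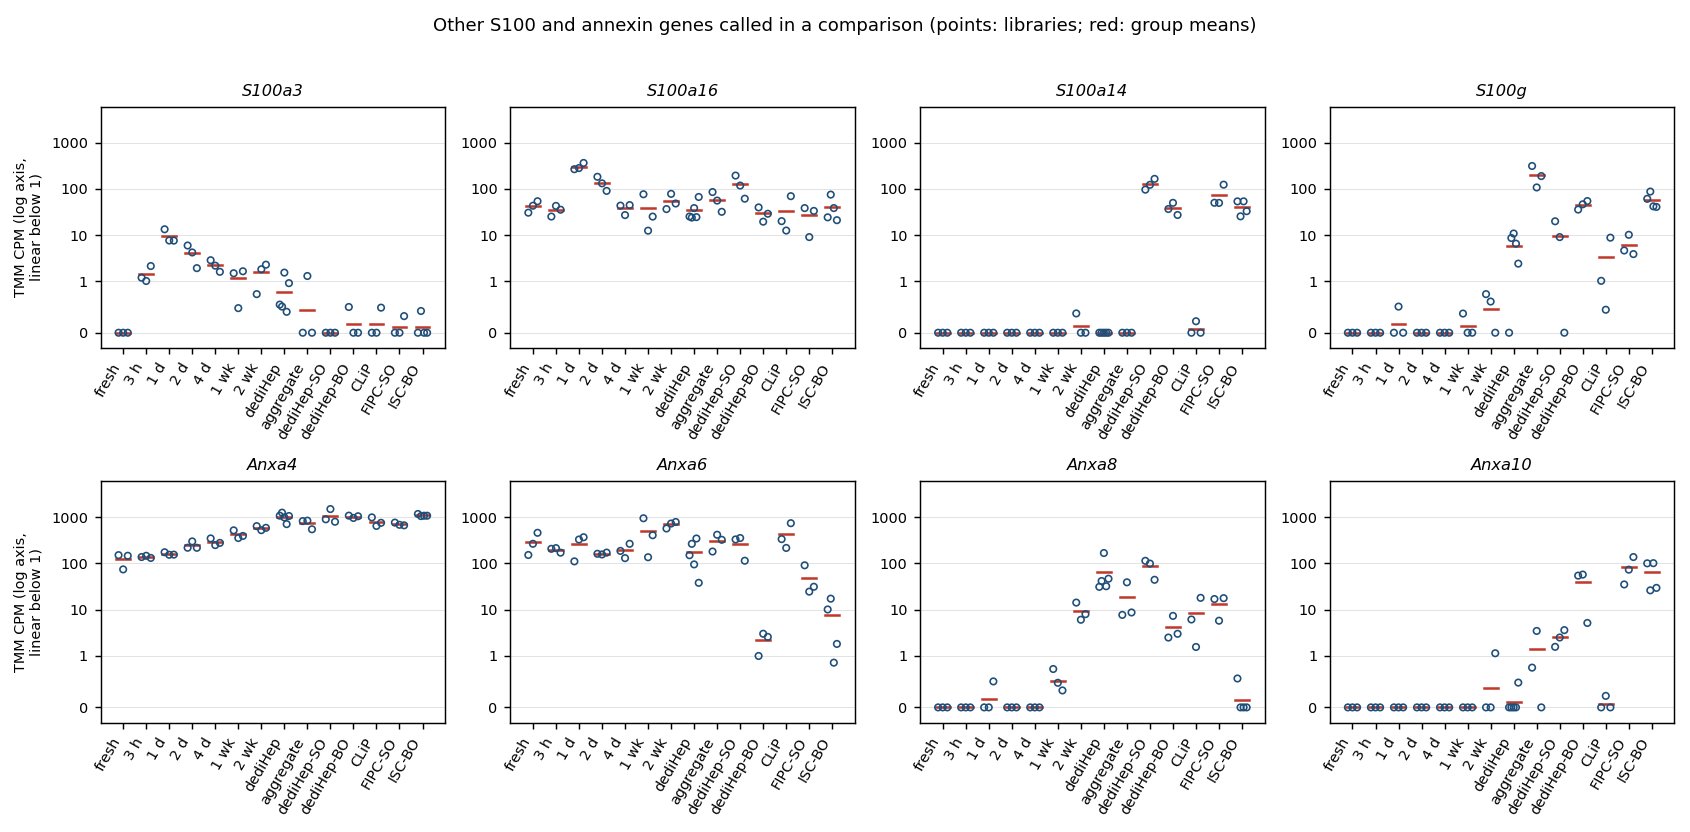
TMM CPM (log axis, linear below 1) of 8 other S100 and annexin genes in 14 groups, 1 panel per gene; points are libraries and red bars group means. S100a16 peaks at 1 d, Anxa4 and Anxa8 come up by 2 wk and stay up in dediHeps, S100g peaks in aggregates, and S100a14 is seen only in organoids apart from single counts.

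Of the 23 partner, receptor and protease genes, 13 to 16 had enough counts per comparison. Src, a kinase that phosphorylates Anxa2, had 3 counts in FH and 866 at 1 d, a ratio of 175 (95% counting interval 59.8 to 852, FDR 8.75e-07). Plaur, the urokinase receptor, was called from 3 h on (ratio 10.2 with an interval of 1.49 to 440 at 3 h, FDR 0.08351). Ahnak, a giant scaffold that binds the S100a10 and Anxa2 tetramer, rose from 27.4 CPM (SD 8.79) to 351 CPM (SD 83.8) at 1 d (3.51, SE 0.34, FDR 7.983e-08). Pla2g4a, the phospholipase A2 that Anxa1 and other annexins can inhibit, fell at 3 h (FH level 24.7 times higher, 95% counting interval 4.02 to 1019, FDR 0.01613) and at 1 d (-2.92, SE 0.77). It was called higher than FH at 2 wk, at 94.3 CPM (SD 28.1) against 9 CPM (SD 6.09) in FH (log2 fold change 3.26, SE 0.60, FDR 0.0001113). At 1 d 6 partners were called higher and 2 lower of 16 tested, where 17.4% of all genes passed. At 2 wk 8 were called higher and 1 lower of 16 tested, where 29.5% of all genes passed.

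Plg, the plasminogen that hepatocytes secrete and the tetramer binds, took the opposite course. It fell from 1729 CPM (SD 484) in FH to 1.60 CPM (SD 1.57) in dediHeps (-10.29, SE 0.81, FDR 3.931e-06) and rose in aggregates to 402 CPM (SD 243; 8.02, SE 0.77, FDR 0.0002467). It was the only partner of 14 tested that was called between dediHeps and aggregates, where 9.51% of all genes passed. Between FH and dediHeps, Src (ratio 152), Plaur (ratio 37.1) and Ahnak (4.05, SE 0.54, FDR 0.0001528) were the 3 called higher of 14 tested, where 25.7% of all genes passed. In dediHep-SOs, Tlr4, a receptor for the S100a8 and S100a9 dimer, rose (4.19, SE 0.73, FDR 0.003653), as did Pla2g4a (2.85, SE 0.94, FDR 0.08141). They were the 2 called of 16 tested, where 8.76% of all genes passed. In dediHep-BOs, Cftr, the chloride channel reported to bind the Anxa2 tetramer, came up from no count (at least 63.9-fold, FDR 0.0007997) and Pla2g4a rose (2.95, SE 0.92, FDR 0.03958), while the protease subunit Capn2 (-3.38, SE 0.44, FDR 0.000376) and Plaur (dediHep level 18.4 times higher, 95% counting interval 6.13 to 90.9) fell. Ahnak was the other gene called lower there, so that 2 were higher and 3 lower of 14 tested, where 14.2% of all genes passed. Cftr remained lower than in ISC-BOs (-2.99). It was lower in dediHep-SOs than in FIPC-SOs (-3.44), where Tgm2, a crosslinking enzyme, was higher (2.79). No partner was called in CLiPs (1 of 15 with an unadjusted p under 0.05) or with verteporfin (2 of 14) by edgeR's quasi-likelihood test. The counts over all genes at that p are given above.

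The likeness of profiles was described by Pearson's r of mean log2 CPM over the 16 groups, among 14420 genes with enough counts, leaving out S100 and annexin genes. The groups share donors' strain, protocol and, in part, cultures, and r is given without a test. S100a6 was most like Serpinb6a (0.989), Tagln2 (0.980) and Slc25a24 (0.975). Anxa2 was most like Slc25a24 (0.977), Serpinb6a (0.975) and Cd63 (0.972), so these lists shared 2 of 3 genes. By Spearman's rho the values for Anxa2 were 0.718, 0.75 and 0.579, and none of its 3 genes, nor Tagln2 and Slc25a24 for S100a6, was among the 10 most alike. Anxa3 was most like the actin crosslinker Flna (0.975), Ahnak (0.972) and Acot9 (0.966), Anxa5 most like Phldb2 (0.967), Rab12 (0.963) and Msn (0.961), and S100a11 most like Rap2b (0.966), Gprc5a (0.964) and Abl2 (0.952). None of the 3 genes of S100a11, nor Flna and Acot9 for Anxa3 or Rab12 for Anxa5, was among the 10 most alike by Spearman's rho.

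S100a10 was most like the keratin genes Krt18 (0.890) and Krt8 (0.882), which encode the keratin pair of hepatocytes, and Tnfrsf12a (0.866). S100a1 was most like Furin (0.959), with Gm5617 (0.931) also among its closest genes, S100a4 like Golt1b (0.938), Thbs1 (0.915) and Fam149a (0.905), S100a7a like Phxr4 (0.968), Ccl17 (0.929) and Cav1 (0.926), and Anxa1 like Epb41l4a (0.928), Lama5 (0.926) and Sema3c (0.916). No gene named for S100a7a, nor Tnfrsf12a for S100a10, Fam149a for S100a4 or Lama5 for Anxa1, was among the 10 most alike by Spearman's rho. Between members, r was 0.972 for S100a6 and Anxa2 and 0.949 for S100a11 and Anxa2, and 0.503 for S100a10 and Anxa2, the pair that forms the tetramer. Spearman's rho was 0.665, 0.853 and 0.782 for these pairs, so their order depended on the measure.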

How the data were processed

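Libraries had been prepared with CEL-Seq2, which tags each cDNA with a UMI of 6 bases. Per the labels, the submitters' processing notes name bcl2fastq 2.20, Bowtie2 2.3.1, HTSeq 0.6.0 and GRCm38, and the deposited values are UMI counts per Ensembl gene, not normalized by the authors. All 49 columns were assigned by their names. The members and gene lists were chosen with earlier results of these data known. All 10 members, the other family genes called, the 4 largest called partners per comparison and the 3 most alike genes per member were named, of which 1 is not reported here. Gene symbols and positions came from GENCODE M21, promoters from RefSeq (GRCm38.p6).

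Counts were tested with edgeR 4.0.16 in R 4.3.3 (TMM, filterByExpr with a minimum count of 10 and a minimum total of 15, quasi-likelihood F-test, Benjamini-Hochberg FDR), on the 2 groups compared or, for monolayers, FH and the 6 times in 1 fit. A gene was called where the FDR was under 0.1 and the log2 fold change beyond 2 in either direction. The script was tested on simulated data. Against groups without counts, folds are lower bounds from 3 counts over the group and library totals, and against 1 to 3 counts they carry exact 95% counting intervals, which cover counting error only. At these depths 3 counts are 0.775 to 3.48 CPM in a library. Alternatives were DESeq2 1.42.0, its size factors (RLE), no filter, all libraries in 1 fit, a correction for UMI repeats, replicate or culture blocks, and leaving out each library.

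DediHep aggregates 1 to 3 share cultures with dediHeps 1, 2 and 4 by their labels, and their deviations from the group means were correlated (r 0.175 to 0.325). DediHep-SOs also share cultures with dediHeps (r -0.442 to 0.0197). DediHep-BOs share only numbers with dediHeps (r 0.143 to 0.17). The main fits of these comparisons did not use any pairing, and blocks entered only as alternatives.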

Additional observations from a re-analysis of the deposited data

Results flagged for a closer look

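In groups of 4 or 5 libraries, a library was marked where its gap to the nearest of the others, divided by the range of the group, exceeded Dixon's 95% critical value. Of 42 gene and group pairs tested 5 were marked, where chance marks about 1 in 20. Anxa2 was at 457.7 CPM in dediHep culture 1, against 823.7 to 883.5 CPM in the other 4. Anxa8 was at 167.9 CPM in dediHep culture 3, against 31.2 to 46.78 CPM in the others. S100a8 was at 1.628 CPM in dediHep culture 4 and had no count in the others. Anxa1 was at 1.305 CPM in ISC-BO library 3, against 0.4229 to 0.5622 CPM, all of them a few counts. Anxa4 was at 1173 CPM in ISC-BO library 1, against 1057 to 1076 CPM. The causes were not tested.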

How the results depend on the processing

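No direction of a called value reversed under any alternative. The number of other S100 and annexin genes called between dediHeps and FH was 3 of 8 tested, where 25.7% of all genes passed. It was 2 to 4 over the alternatives (2 to 3 without 1 library). Between 2 wk and FH it was 3 of 8 (2 to 3), where 29.5% of all genes passed. For aggregates against dediHeps it was 1 of 8, against 9.51% of all genes. It was 2 there without the filter or with all libraries in 1 fit (1 to 2 without 1 library). For dediHep-SOs it was 1 of 9, against 8.76% of all genes. It was 2 there by DESeq2, 3 without the filter and 4 with all libraries in 1 fit (1 to 3 without 1 library). For dediHep-BOs it was 5 of 10 (5 to 7), against 14.2% of all genes. For CLiPs it was 0 of 8, against 3.04% of all genes. It was 2 there by DESeq2, without the filter or with all libraries in 1 fit, and 1 (Anxa8) with the replicate block (0 to 1 without 1 library). With verteporfin it was 0 throughout. The causes were not tested. Same-numbered libraries were not shown to be paired between CLiPs and dediHeps, dediHeps and FH or monolayers and FH (r from -0.547 to 0.5), nor between verteporfin and DMSO (2 pairs, r 0.304), where the replicate block gave 59 calls and added S100a7a (2.18). Among the members the blocks changed no call but this and that of Anxa1 in dediHep-BOs, and the culture block for dediHep-SOs moved calls over all genes from 1005 to 920.

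Over all genes, calls moved by over 1.5 times without the filter, from 2901 to 4481 (dediHeps against FH), 1071 to 1608 (aggregates), 1005 to 1652 (dediHep-SOs), 1667 to 2713 (dediHep-BOs), 352 to 714 (CLiPs, where the share called higher went from 54.3% to 64.4%) and 28 to 90 (verteporfin). With all libraries in 1 fit they were 1805, 1678, 2526, 1169 and 0 in the last 5. For CLiPs DESeq2 called 726, and leaving out 1 library gave 109 to 488 (109 without CLiP library 1, with 71.6% higher, and 224 without dediHep culture 2). With verteporfin, leaving out 1 library gave 33 to 106 (106 without verteporfin library 2, 63 without DMSO library 1, 43 without DMSO library 2), with the lone library assumed to vary like the other group. Correction for UMI repeats moved 10 of 68 member fold changes and 32 of 160 group levels by more than the spread, and CPM without TMM factors moved 21 levels. Depth limits S100a7a, Anxa1 and S100a4 in FH and ISC-BOs, and the UMI limit S100a6 in culture.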
